A study of Mus musculus with 16 samples.

Results

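The genes described here are 38 replication and mitosis genes, the set most often read as a sign that cells are dividing: the factors that license and unwind replication origins, the replication clamp and the enzymes of nucleotide supply, the S phase and mitotic cyclins with their kinases and E2f1, the mitotic kinases and checkpoint proteins, and the motors and chromosome proteins of mitosis. They were chosen by gene symbol. Each gene was represented by the probe set that carries its symbol alone and has the highest mean signal over all arrays, and 37 of the 38 could be measured this way, out of 18193 genes with such a probe set. Ccnb1, the B-type cyclin of mitotic entry, had no probe set annotated to it alone and no value is given for it.

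Gene expression was measured on 16 Affymetrix mouse arrays from CCE mouse embryonic stem cells, which were kept on irradiated embryonic fibroblasts with LIF, separated from them and left to form embryoid bodies without LIF. The 4 positive populations were sorted by antibody: VEGF-R2+ cells at day 2.5 (which the study calls hemangioblast), CD41+ cells at day 3.5 (hematopoietic precursor), CD144+ cells at day 3.5 (angioblast) and CD144+ cells at day 6.5 (endothelial cell). Each had its negative control from the same day, VEGF-R2-, CD41-, CD144- and CD144- cells, so that there were 8 populations with 2 arrays each, made from separate experiments. All cells came from this 1 line, for which the labels name no altered allele or further agent, and were fixed in ethanol and acetic acid before staining. A negative population holds every cell without the marker, not 1 cell type.

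A cell copies its genome once per cycle. Origins are licensed in G1, when Cdc6 and Cdt1 load the helicase of Mcm2 to Mcm7, and fire in S phase under cyclin E and cyclin A with Cdk2; entry into mitosis follows the rise of cyclin B with Cdk1. The S phase genes are transcribed under E2F factors, which the retinoblastoma proteins hold in check, and many mitotic genes carry a CHR (cell cycle genes homology region) element that is bound by the DREAM and MuvB complexes. Embryonic stem cells have a short G1 and express both sets strongly, and cells that mature generally lengthen G1 and raise cell cycle inhibitors. In sorted bulk cells, fewer cycling cells and less RNA per cycling cell cannot be told apart.

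The deposited values are MAS5 signals, a linear brightness that is comparable between arrays for 1 probe set and not between genes. The number of arrays limits the precision. The sorting markers followed the labels: Kdr (VEGF-R2) had 5475 and 6297 in VEGF-R2+ cells, against 2088 and 2077 in VEGF-R2- cells; Itga2b (CD41) had 7523 and 5299 in CD41+ cells, against 227 and 195 in CD41- cells; and Cdh5 (CD144) had 3166 and 2219 in CD144+ cells, against 31.0 and 37.2 in CD144- cells at day 6.5. On day 3.5 Cdh5 had 2085 and 1863 in CD144+ cells, against 38.3 and 20.5 in CD144- cells. Cdh5 also read 643 and 839 in VEGF-R2+ cells at day 2.5, so with Kdr in VEGF-R2- cells the marker transcripts were not confined to the sorted gates. The 8 positive arrays stood apart from the 8 negative ones in a technical measure: the spiked hybridisation controls had a geometric mean of 5171 to 9079 on positive and 1830 to 2571 on negative arrays, and the brightest probe set read 69556 to 115166 on positive and 30720 to 41369 on negative arrays. Duplicates also correlated less on positive arrays (Spearman's rho across probe sets 0.873 to 0.895) than on negative ones (0.945 to 0.955). A comparison of positive with negative cells is therefore also a comparison of these 2 sets of arrays, and the 2 cannot be told apart. A comparison among positive arrays, fitted with the spread of all arrays, uses a spread that is partly set by the closer negative duplicates, so its counts are also given from a fit of the positive arrays alone.

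All tests are from limma over 45037 probe sets, with p-values adjusted by Benjamini-Hochberg and a threshold of 0.05; fold changes are on the scale of log2(signal + 6.02). Nearly all members are bright (36 of 37 lie among the 25% of probe sets with the highest mean signal, called the bright probe sets here), and bright probe sets pass the test more often, so the share of the bright probe sets is given beside the share of all probe sets.

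Between positive populations, the members were lowest in CD144+ cells at day 6.5. Against VEGF-R2+ cells at day 2.5, 17 of the 37 (45.9%) were lower in CD144+ cells at day 6.5 and 0 higher, with a median log2 fold change of -0.43, where 6.11% of all probe sets were lower and 9.4% higher (18.1% and 15.1% of the bright probe sets) and the median of all probe sets was 0.11. Against CD144+ cells at day 3.5, 10 (27.0%) were lower in CD144+ cells at day 6.5 and 0 higher, where 2.64% of all probe sets were lower and 3.2% higher (7.69% and 5.37% of the bright probe sets). Cdc6, Mcm10, Rrm1, Mcm2 and Ccne2 fell most in the first comparison. With the positive arrays fitted alone, these counts were 10 and 3; with a variance prior without trend, they were 9 and 0. Leaving out any 1 of the 4 CD144+ arrays gave 4 to 6 in the second comparison. With each array centred on its median, the counts were 23 and 10, and the median of all probe sets against VEGF-R2+ cells moved to -0.12.

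At day 3.5 the CD41+ and CD144+ cells differed. In CD41+ cells, 5 members (13.5%) were higher than in VEGF-R2+ cells at day 2.5 (Mki67, E2f1, Cdt1, Tk1 and Mcm6) and 1 was lower (Rrm1), where 5.02% of all probe sets were higher and 4.82% lower (9.33% and 11% of the bright probe sets). In CD144+ cells at day 3.5, 3 members were higher than in VEGF-R2+ cells (Cdt1, Mcm6 and Mki67) and 8 (21.6%) lower (Ccne2, Cdk1, Rrm1, Cdc6, Rrm2, Birc5, Tk1 and Mad2l1), where 4.87% of all probe sets were higher and 2.84% lower (9.13% and 7.19% of the bright probe sets). The 5 higher members of CD41+ cells and the 3 (8.11%) of CD144+ cells are near these shares and are no result about the members as a group. Set against each other at day 3.5, 9 members (24.3%) were lower in CD144+ than in CD41+ cells and 0 higher, where 3.72% of all probe sets were lower and 6.06% higher (7.96% and 12.6% of the bright probe sets). With the positive arrays fitted alone, 3, 1 and 4 members passed in these 3 comparisons, namely Mki67, E2f1 and Cdt1 in the first, Ccne2 in the second, and Tk1, Mki67, Cdk2 and Cdc6 in the third. Centring moved the split of higher and lower members to 3 and 0, 0 and 9, and 0 and 7. Leaving out CD41+ replicate 1 left 2 members in the first and 6 in the third (5 of them lower); leaving out CD144+ replicate 2 left 2 in the second and 3 in the third, and without VEGF-R2+ replicate 1 or 2 the second had 3 or 2.

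In the negative populations 0 to 4 members passed in each comparison between days. Against VEGF-R2- cells at day 2.5, CD41- cells at day 3.5 had 0 members higher and 1 lower (Ccne1), where 1.57% of all probe sets were higher and 1.89% lower (4.6% and 5.26% of the bright probe sets). CD144- cells at day 3.5 had 1 higher (Ccnb2) and 2 lower (Ccne1 and Bub1b), where 3.9% were higher and 3.24% lower (10.5% and 8.13% of the bright ones). CD144- cells at day 6.5 had 0 higher and 4 lower (Ccne1, Plk1, Tk1 and Mcm2), where 5.05% were higher and 3.72% lower (12.2% and 10.4% of the bright ones). Between CD144- cells at day 6.5 and at day 3.5, 0 members passed the test of limma in either direction (4 were lower at an unadjusted p under 0.05), and 0.557% of all probe sets were higher and 0.162% lower (1.03% and 0.497% of the bright ones). The duplicates of negative arrays lie closer together than those of positive arrays; fitted alone, the negative arrays gave 4, 5 and 8 members in the comparisons with day 2.5, and a fit of the compared groups alone gave 9, 12 and 2. Leaving out any 1 array left 1 member in each of the first 2 comparisons, and leaving out either VEGF-R2- array left 2 in the third.

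Against the negative cells of the same day, members moved both ways. In VEGF-R2+ cells at day 2.5, 7 members (18.9%) were higher and 11 (29.7%) lower than in VEGF-R2- cells, where 11.1% of all probe sets were higher and 13.8% lower (26.1% and 24.8% of the bright probe sets). In CD41+ cells, 7 were higher and 10 lower than in CD41- cells, where 13.5% were higher and 15.8% lower. In CD144+ cells at day 3.5, 4 were higher and 8 lower than in CD144- cells, where 9.49% were higher and 10.5% lower. Of the bright probe sets, 29.3% were higher and 28.6% lower in CD41+ cells and 21.6% higher and 22.4% lower in CD144+ cells at day 3.5, so these shares are near the background and are no result about the members. In CD144+ cells at day 6.5, 4 members (10.8%) were higher and 20 (54.1%) lower than in CD144- cells, with a median log2 fold change of -0.52, where 9.42% of all probe sets were higher and 10.1% lower (20.9% and 24.5% of the bright probe sets). With quantile normalization the splits of higher and lower members were 5 and 14, 6 and 15, 4 and 13, and 2 and 20 on the 4 occasions, and with centring 6 and 7, 6 and 6, 1 and 10, and 0 and 20. Leaving out CD144- replicate 2 of day 6.5 left 15 members in the last comparison, leaving out VEGF-R2- replicate 1 or 2 left 10 or 11 in the first, and leaving out CD41- replicate 1 or 2 left 9 or 10 in the second.

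**Figure D1:**
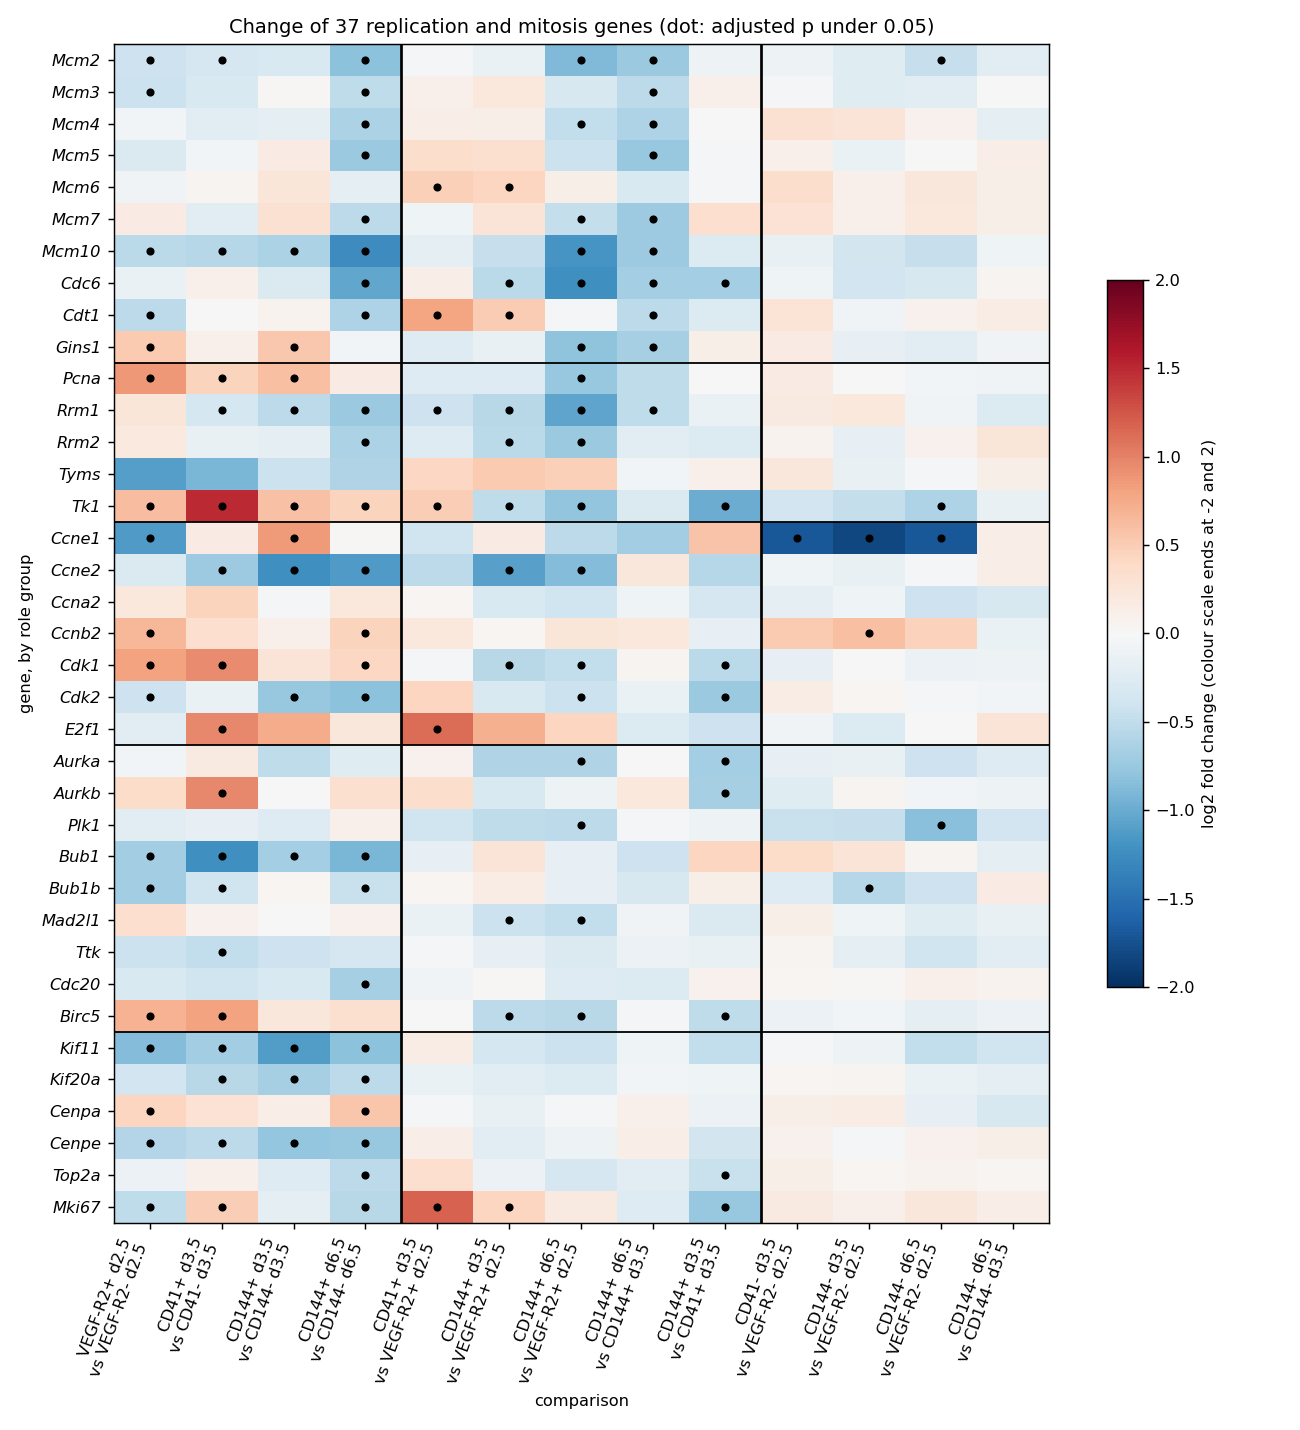
Log2 fold change of each of the 37 measured genes (rows, grouped by role with black lines between groups) in 13 comparisons (columns: positive against negative cells of a day, then positive populations against each other, then negative populations), with a dot where the adjusted p was under 0.05. The blue block of dots in the first 10 rows of CD144+ d6.5 against CD144+ d3.5 holds 9 licensing and helicase genes, and the last 4 columns hold few dots.

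The licensing and helicase genes made up 9 of the 10 members that fell between the CD144+ populations. The Mcm2 to Mcm7 proteins form the replicative helicase, Cdc6 and Cdt1 load it, and Mcm10 and Gins1 help to activate it at the origin. At day 6.5, 9 of these 10 genes were lower in CD144+ cells than at day 3.5 (median log2 fold change -0.68), 6 were lower than in VEGF-R2+ cells (median -0.49) and 8 were lower than in CD144- cells of the same day (median -0.63), and 0 were higher in any of the 3. The first count was 3 with the positive arrays fitted alone, 0 with a variance prior without trend, 5 with the most variable probe set or the mean of all probe sets of a gene, and 5, 4, 6 and 5 without CD144+ day 3.5 replicate 1, day 3.5 replicate 2, day 6.5 replicate 1 and day 6.5 replicate 2. The second was 4 with the positive arrays alone and 3 with the most variable probe set, and the third was 4 with only the compared groups in the fit and 5 without CD144- replicate 2 of day 6.5 or with a prior without trend. Mcm6 was the gene that did not pass against CD144+ cells at day 3.5, with a log2 fold change of -0.31. Of the 24 probe sets of these genes with a mean above the median of all probe sets, 23 had a negative fold change in that comparison.

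Mcm10 had a signal of 859 and 748 in CD144+ cells at day 6.5, against 1458 and 1213 in CD144+ cells at day 3.5 and 1911 and 1752 in VEGF-R2+ cells. The day 6.5 arrays were the lowest of all 16, and the negative populations read 1886 to 2699. It fell against VEGF-R2+ cells (log2 fold change -1.19, SE 0.15, adjusted p = 3.71e-05) and against CD144- cells of day 6.5 (log2 fold change -1.26, SE 0.15, adjusted p = 1.53e-05). Cdc6, the loader that recruits the helicase, had 965 and 1183 in CD144+ cells at day 6.5, against 1800.0 and 1644 at day 3.5 and 2241 and 2807 in VEGF-R2+ cells. Its day 6.5 arrays lay below every other array, and CD144+ cells at day 3.5 also lay below CD41+ cells, which had 2629.7 and 2907. The change against VEGF-R2+ cells was the steepest of the 37 members in that comparison (log2 fold change -1.23, SE 0.15, adjusted p = 3.28e-05), and CD144+ cells were lower than CD41+ cells at day 3.5 (log2 fold change -0.68, SE 0.15, adjusted p = 0.00759).

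Mcm2, a helicase subunit, had 2636 and 2133 in CD144+ cells at day 6.5, against 4090.4 and 3846 at day 3.5 and 4322 and 4396 in VEGF-R2+ cells. The groups did not overlap, and the change between CD144+ cells of the 2 days (log2 fold change -0.74, SE 0.12, adjusted p = 0.00199) kept its call when the positive arrays were fitted alone. Mcm7 had 10507 and 11725 in CD144+ cells at day 6.5, against 17262 and 19686 at day 3.5 (log2 fold change -0.73, SE 0.13, adjusted p = 0.00307). It also kept its call in that fit, as did Mcm5, which had 7439 and 7558 against 10864 and 14879 (log2 fold change -0.76, SE 0.15, adjusted p = 0.00599). Gins1, a subunit of the GINS complex that travels with the helicase, had 1820.1 and 2334 in CD144+ cells at day 6.5, against 3262 and 3290.5 at day 3.5. Gins1 was the 1 licensing gene that passed the test as higher in VEGF-R2+ than in VEGF-R2- cells. It had 3229 and 4055 in VEGF-R2+ against 2609.9 and 2443 in VEGF-R2- cells (log2 fold change 0.52, SE 0.15, adjusted p = 0.018).

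Cdt1 and Mcm6 went the other way first. Cdt1 had 11295 and 9526 in CD41+ cells (log2 fold change 0.79, SE 0.15, adjusted p = 0.00179) and 7910.3 and 9322 in CD144+ cells at day 3.5 (log2 fold change 0.51, SE 0.15, adjusted p = 0.0398), against 5834 and 6196 in VEGF-R2+ cells. At day 6.5 it had 5739.6 and 6157 in CD144+ cells, overlapping VEGF-R2+ cells and below CD144+ cells of day 3.5 (log2 fold change -0.53, SE 0.15, adjusted p = 0.0408). Mcm6 had 11176 and 10229.7 in CD41+ cells and 9964 and 10851.5 in CD144+ cells at day 3.5, against 8017 and 7437 in VEGF-R2+ cells, with log2 fold changes of 0.47 (adjusted p = 0.0194) and 0.43 (adjusted p = 0.0394). Neither call of Mcm6 held when the positive arrays were fitted alone, and for Cdt1 that of CD41+ cells did; the mean of all probe sets of Cdt1, which include a very dim one, gave 0.18 in CD144+ cells at day 6.5 against day 3.5.

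The promoters of the licensing genes share a sequence feature that their choice did not use. RefSeq promoter windows of build GRCm38.p6, from 250 bases before to 50 bases after the gene start, were given for 32 of the 38 members, and each was searched on both strands for 4 E2F-type sites (TTTGGCGC, TTTCCCGC, TTTGCCGC and TTTCGCGC, which may overlap), for the CHR element TTTGAA and for the CCAAT box. An E2F-type site stood in 6 of the 8 licensing windows (75.0%), in 2 of 6 windows of cyclins and kinases (Cdk1 and Cdk2) and in 0 of the other 18, while 2.32% of all 27025 windows held one. A match is a description of these letters, not of binding. The following upstream stretches of 4 genes that fell or stood out are shown, with the E2F-type sites in capitals and positions counted from -1 at the base before the gene start. They lie on chr8:75109335-75109392 (plus strand, Mcm5), chr1:128359720-128359777 (minus strand, Mcm6), chr5:138172016-138172073 (minus strand, Mcm7) and chr11:98907988-98908045 (plus strand, Cdc6), in the upstream flank of each gene.
Mcm5: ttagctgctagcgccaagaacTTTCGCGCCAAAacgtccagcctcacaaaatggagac
Mcm6: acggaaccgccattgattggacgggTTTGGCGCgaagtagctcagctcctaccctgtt
Mcm7: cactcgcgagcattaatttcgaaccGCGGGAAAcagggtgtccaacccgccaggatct
Cdc6: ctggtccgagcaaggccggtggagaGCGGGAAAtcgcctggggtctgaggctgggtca
In Mcm5 a pair of overlapping sites on opposite strands forms 1 run that starts at -153, and in Mcm6 the site at -47 is one of 3. Mcm6 carried sites and did not pass at day 6.5, and Mcm10, with a change among the largest, carried none of these letters in its window.

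The enzymes of nucleotide supply and the clamp were lower in CD144+ cells at day 6.5 than in VEGF-R2+ cells in 4 of 5 cases. In that comparison 6.11% of all probe sets were lower (18.1% of the bright ones). Against CD144- cells of the same day 2 were lower (Rrm1 and Rrm2) and 1 was higher (Tk1), where 10.1% were lower and 9.42% higher (24.5% and 20.9% of the bright ones). This split was 1 lower and 0 higher with only the compared groups in the fit, and 0 lower and 1 higher with the most variable probe set. It is no result about the group. Pcna is the sliding clamp that tethers DNA polymerase, Rrm1 and Rrm2 form ribonucleotide reductase, Tk1 is the S phase thymidine kinase and Tyms makes thymidylate. Rrm1 had 2547 and 2577 in CD144+ cells at day 6.5, 3759 and 3508 in CD144+ cells and 4164 and 3797 in CD41+ cells at day 3.5, against 4817 and 5881 in VEGF-R2+ cells. All 3 later populations lay below VEGF-R2+ cells, with log2 fold changes of -1.05, -0.55 and -0.42 (adjusted p = 2.26e-05, 0.0116 and 0.0416). The calls at day 3.5 did not hold when the positive arrays were fitted alone. A second bright probe set of Rrm1 gave -0.96 in CD144+ cells at day 6.5 against VEGF-R2+ cells, but 0.10 against CD144+ cells at day 3.5, where the first gave -0.50. Rrm2 had 5704 and 5998 in CD144+ cells at day 6.5, against 9678 and 9945 in VEGF-R2+ cells (log2 fold change -0.75, SE 0.12, adjusted p = 0.000444).

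Tk1 varied most among the clamp and nucleotide genes. It had 4272 and 3894 in CD41+ cells, the highest of all populations, against 1428 and 1450.3 in CD41- cells (log2 fold change 1.5, SE 0.15, adjusted p = 7.19e-07). CD144+ cells at day 3.5 had 2240.5 and 1853, below CD41+ cells with a log2 fold change of -1.0 (adjusted p = 0.000218), and CD144+ cells at day 6.5 had 1551 and 1809.8, against 2925.5 and 2879.6 in VEGF-R2+ cells (log2 fold change -0.79, SE 0.15, adjusted p = 0.00114). On each day the positive arrays lay above the negative ones, which read 1087 to 1956 in all. Pcna had 17133 and 19600.2 in CD144+ cells at day 6.5, against 27225 and 35531 in VEGF-R2+ cells (log2 fold change -0.76, SE 0.15, adjusted p = 0.00173), and was higher in positive than in negative cells at days 2.5 and 3.5, for example 27225 and 35531 in VEGF-R2+ against 16952 and 17159.8 in VEGF-R2- cells (log2 fold change 0.87, SE 0.15, adjusted p = 0.000365). Pcna is among the brightest probe sets, where positive and negative arrays differ in range; after quantile normalization the last difference was 0.12 and that of CD41+ against CD41- cells turned to -0.07. Tyms passed in no comparison: its probe set was dim, at 37.8 to 107 on positive and 117 to 180.3 on negative arrays.

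**Figure D2:**
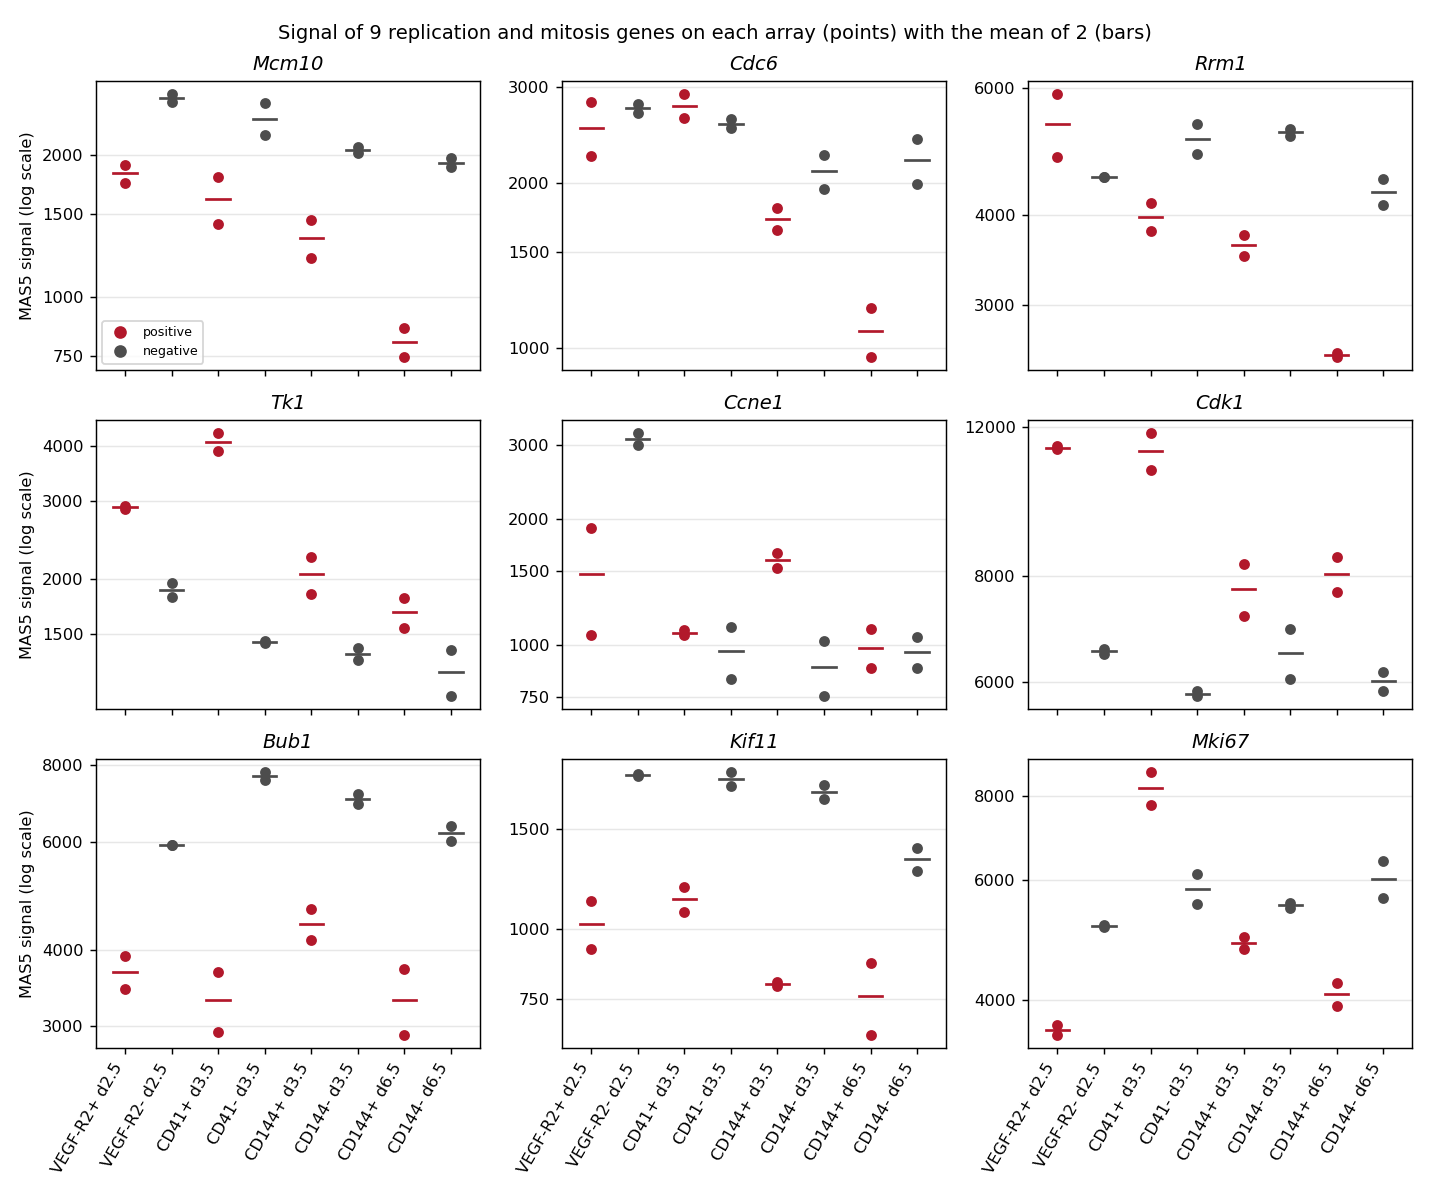
MAS5 signal on a log axis of 9 members on each array, with positive cells in red to the left of the negative cells of the same day in grey and a bar at the mean of 2. Mcm10, Cdc6 and Rrm1 are lowest in CD144+ d6.5, Tk1 and Mki67 are highest in CD41+ d3.5, and Ccne1 is highest in VEGF-R2- d2.5.

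Among the cyclins, kinases and E2f1, the 2 genes of cyclin E, the partner of Cdk2 at the start of S phase, moved apart by their chosen probe sets. Ccne1 had 1103 and 829 in CD41-, 1018 and 755 in CD144- day 3.5 and 878 and 1045 in CD144- day 6.5 cells, against 3006 and 3199.7 in VEGF-R2- cells at day 2.5. All 3 later negative populations were lower, with log2 fold changes of -1.69, -1.82 and -1.69 (adjusted p = 0.000342, 7.68e-05 and 0.000143), and these were the largest changes of any member among negative cells. VEGF-R2+ cells had already 1901 and 1053, below VEGF-R2- cells (log2 fold change -1.13, SE 0.23, adjusted p = 0.00158), with duplicates that lay far apart. A second probe set of Ccne1, nearly as bright, had negative changes in positive cells too. Against VEGF-R2+ cells it gave -1.29 in CD41+, -0.28 in CD144+ day 3.5 and -1.31 in CD144+ day 6.5 cells. On that probe set the 2 genes did not move apart in this way. Ccne2 fell in positive cells: it had 329 and 414 in CD144+ cells at day 6.5 and 313 and 319 at day 3.5, against 722 and 638 in VEGF-R2+ cells (log2 fold change -1.09, SE 0.18, adjusted p = 0.000988, at day 3.5), while all negative arrays read 716 to 879. The Ccne2 difference between CD144+ and CD144- cells was -1.23 at day 3.5 and -1.14 at day 6.5, and it passed under all alternatives run at day 3.5.

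Cdk1, the kinase of mitotic entry, had 11792 and 10665 in CD41+ cells, against 5781 and 5853 in CD41- cells (log2 fold change 0.95, SE 0.12, adjusted p = 1.59e-05), and 11386 and 11289.7 in VEGF-R2+ cells, against 6474 and 6565 in VEGF-R2- cells. CD144+ cells were lower than both, at 8263 and 7188 on day 3.5 and 7662 and 8434 on day 6.5, and were below VEGF-R2+ cells with log2 fold changes of -0.56 and -0.50 (adjusted p = 0.0094 and 0.01). The day 3.5 call did not hold when the positive arrays were fitted alone. The difference between the 2 CD144+ populations did not pass (log2 fold change 0.06). E2f1, the activator of S phase genes, had 963 and 929 in CD41+ cells, against 390.0 and 482 in VEGF-R2+ cells (log2 fold change 1.11, SE 0.26, adjusted p = 0.0115), and all negative arrays read 347 to 612. Cdk2 was lower in CD144+ cells at day 6.5 than in CD144- cells (log2 fold change -0.83, adjusted p = 0.000399) and lower in CD144+ than in CD41+ cells at day 3.5 (log2 fold change -0.74, adjusted p = 0.00198). The mean of its probe sets had the opposite sign in the second, 0.24, and takes in a very dim set, at percentile 4.72 of mean signal. Ccnb2, a second B-type cyclin, had 5959.7 and 5569 in VEGF-R2+ cells, against 3669.9 and 3627 in VEGF-R2- cells (log2 fold change 0.66, SE 0.14, adjusted p = 0.0028). The VEGF-R2- arrays were the lowest of the 16. Ccna2, the A-type cyclin, passed in no comparison, with 4439 to 7568 on positive and 3774 to 5772 on negative arrays.

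Between the CD144+ populations no mitotic kinase, checkpoint gene or motor was called. At day 6.5 against day 3.5, 0 of 9 kinase and checkpoint genes and 0 of 6 motor and chromosome genes passed the test of limma, with a median log2 fold change of -0.07 in each group (2 and 0 were lower at an unadjusted p under 0.05), beside 9 of 10 licensing genes with -0.68; the difference between the groups of genes was not tested, and the 9 was 3 with the positive arrays alone, 0 with a prior without trend and 4 to 6 when 1 CD144+ array was left out. In quantile-normalized values the medians were 0.01, -0.07 and -0.56. Against VEGF-R2+ cells, 4 of 9 kinase and checkpoint genes were lower in CD144+ cells at day 6.5 (Aurka, Plk1, Mad2l1 and Birc5, log2 fold changes -0.59 to -0.50), and 0 of 6 motor and chromosome genes. The count of 4 was 1 (Birc5) with the positive arrays fitted alone, 0 with quantile normalization or a prior without trend, and 1, 2, 2 and 2 without VEGF-R2+ replicate 1, VEGF-R2+ replicate 2, CD144+ day 6.5 replicate 1 and CD144+ day 6.5 replicate 2. The motor and chromosome genes had 2 with centring and 1 with quantile normalization, with dim probe sets left out or without CD144+ day 6.5 replicate 2.

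**Figure D3:**
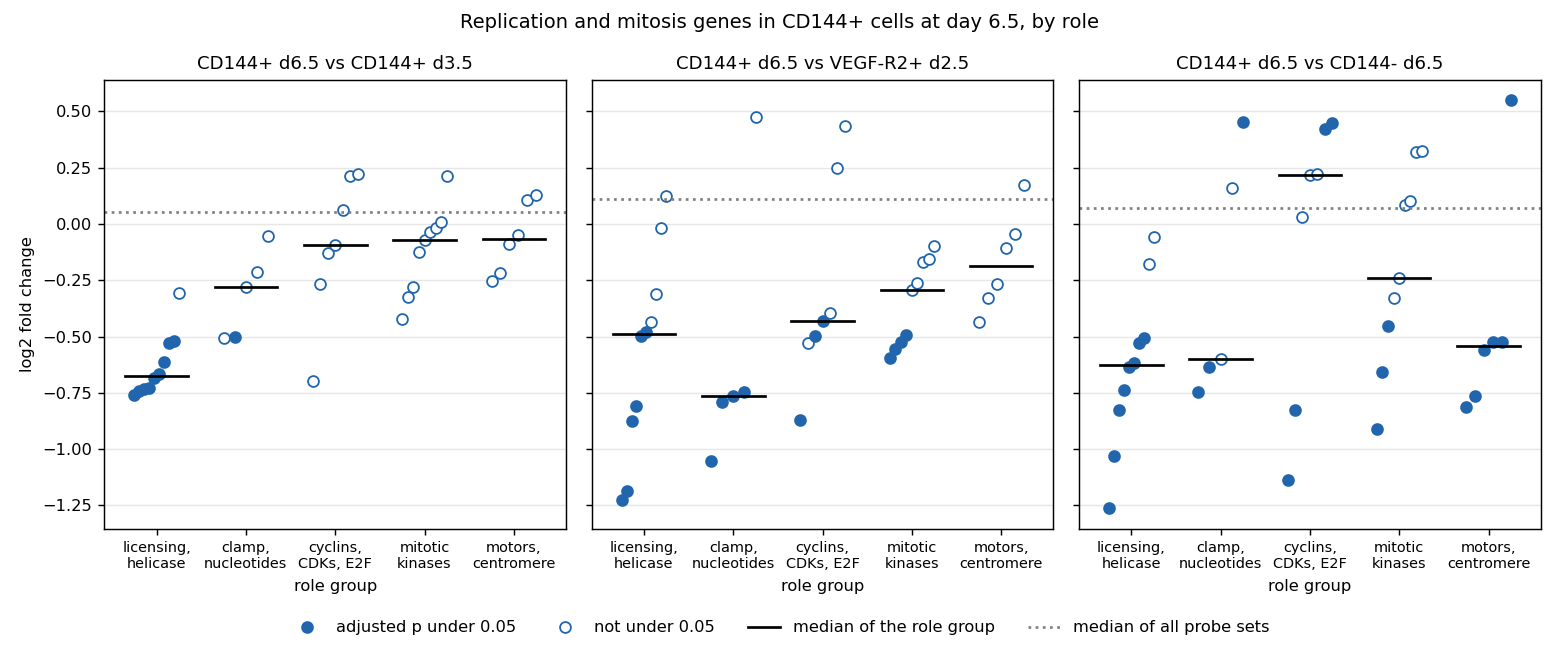
Log2 fold change of each member (circles, filled where the adjusted p was under 0.05) in CD144+ cells at day 6.5 against CD144+ cells at day 3.5, VEGF-R2+ cells at day 2.5 and CD144- cells at day 6.5, by role group, with the median of the group (black bar) and of all probe sets (dotted line). In the left panel the licensing group has a median of -0.68 and both mitotic groups -0.07.

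Bub1, a kinase of the spindle checkpoint, was lower in positive cells on every day by its brightest probe set. It had 3678 and 2932.5 in CD41+ cells, against 7788 and 7555 in CD41- cells (log2 fold change -1.22, SE 0.14, adjusted p = 5.42e-06), and 2904 and 3725 in CD144+ cells at day 6.5, against 6377 and 6007 in CD144- cells (log2 fold change -0.91, SE 0.14, adjusted p = 0.000224). No positive array reached the lowest negative one. A dimmer second probe set of Bub1 had the opposite sign on 2 occasions, with 0.76 in VEGF-R2+ against VEGF-R2- cells and 0.71 in CD41+ against CD41- cells. Birc5 (survivin) and Aurkb, partners in the chromosomal passenger complex, went the other way in CD41+ cells: Birc5 had 11229 and 9753, against 6074 and 5933 in CD41- cells (log2 fold change 0.80, SE 0.12, adjusted p = 0.000103), and Aurkb had 2868 and 3479.7, against 1568 and 1689 (log2 fold change 0.95, SE 0.18, adjusted p = 0.000502). Both were lower in CD144+ than in CD41+ cells at day 3.5, with log2 fold changes of -0.51 (adjusted p = 0.0135) and -0.66 (adjusted p = 0.0238), and so was Aurka, the spindle pole kinase (log2 fold change -0.68, adjusted p = 0.0247). None of these calls between CD144+ and CD41+ cells held when the positive arrays were fitted alone. A second probe set of Aurkb, nearly as bright, gave 0.30 in CD41+ against CD41- cells and -0.52 in CD144+ against CD41+ cells. Plk1, which drives mitotic entry, had 2277 and 2258 in CD144- cells at day 6.5, against 4078 and 4025 in VEGF-R2- cells at day 2.5 (log2 fold change -0.84, SE 0.15, adjusted p = 0.00185).

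Mki67, whose protein coats mitotic chromosomes and is used as a proliferation marker, had the largest change of any member between CD41+ and VEGF-R2+ cells. It had 8658 and 7737 there, against 3671 and 3551 in VEGF-R2+ cells (log2 fold change 1.18, SE 0.12, adjusted p = 5.4e-06), and the call held under all 15 alternatives run. CD144+ cells at day 3.5 had 4749.6 and 4957, below CD41+ cells (log2 fold change -0.75, SE 0.12, adjusted p = 0.000469), and CD144+ cells at day 6.5 had 3915 and 4242, against 5643 and 6403 in CD144- cells (log2 fold change -0.56, SE 0.12, adjusted p = 0.00277). CD41+ cells were thus above and the other positive populations below the negative arrays, which read 5119 to 6403. Kif11 (Eg5), the motor that separates spindle poles, was lower in positive cells on every day, for example 793 and 805 in CD144+ cells at day 3.5, against 1696 and 1794.5 in CD144- cells (log2 fold change -1.12, SE 0.16, adjusted p = 7.94e-05). Cenpe, a kinetochore motor, had 951 and 944 against 1581 and 1682 in the same cells (log2 fold change -0.78, adjusted p = 0.000605), and Kif20a, a motor of cytokinesis, 1876 and 1696 against 2660.4 and 2987.5 (log2 fold change -0.66, adjusted p = 0.0042). Cenpa, the centromeric histone, was instead higher in CD144+ cells at day 6.5, with 6427.5 and 7616 against 4871 and 4690.4 in CD144- cells (log2 fold change 0.55, SE 0.12, adjusted p = 0.00421). In that comparison of CD144+ with CD144- cells at day 6.5, 8 of the 23 members with 2 or more probe sets above the median had sets of opposite sign, Cdc20, Aurkb and Cenpe among them.

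The promoters of the mitotic genes held the other motif. The CHR element TTTGAA stood in 5 of 8 windows of kinase and checkpoint genes (62.5%) and 4 of 5 of motor and chromosome genes (80.0%), but in 1 of 8 licensing windows (12.5%, Mcm2) and in 18.1% of all windows, and 24 of the 32 members (75.0%) held a CCAAT box, against 37.9% of all windows. Among other mitosis genes that are not members, 25 of 40 windows held TTTGAA, and among other replication genes 7 of 31 held an E2F-type site. The stretches just before the gene start of 4 members with the element close to the start are shown with it in capitals. They lie on chr10:69352913-69352952 (minus strand, Cdk1), chr4:118437344-118437386 (minus strand, Cdc20), chr19:37376338-37376381 (plus strand, Kif11) and chr11:99024190-99024237 (minus strand, Top2a).
Cdk1: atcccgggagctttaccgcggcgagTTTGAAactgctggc
Cdc20: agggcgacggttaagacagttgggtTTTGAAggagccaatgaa
Kif11: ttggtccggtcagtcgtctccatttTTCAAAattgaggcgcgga
Top2a: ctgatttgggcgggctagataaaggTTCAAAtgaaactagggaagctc
The first base of the element lies at -15 in Cdk1, -18 in Cdc20, -19 in Kif11 and -23 in Top2a. None of these 4 genes passed in CD144+ cells at day 6.5 against day 3.5, with log2 fold changes of 0.06, -0.28, -0.09 and -0.22.

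**Figure D4:**
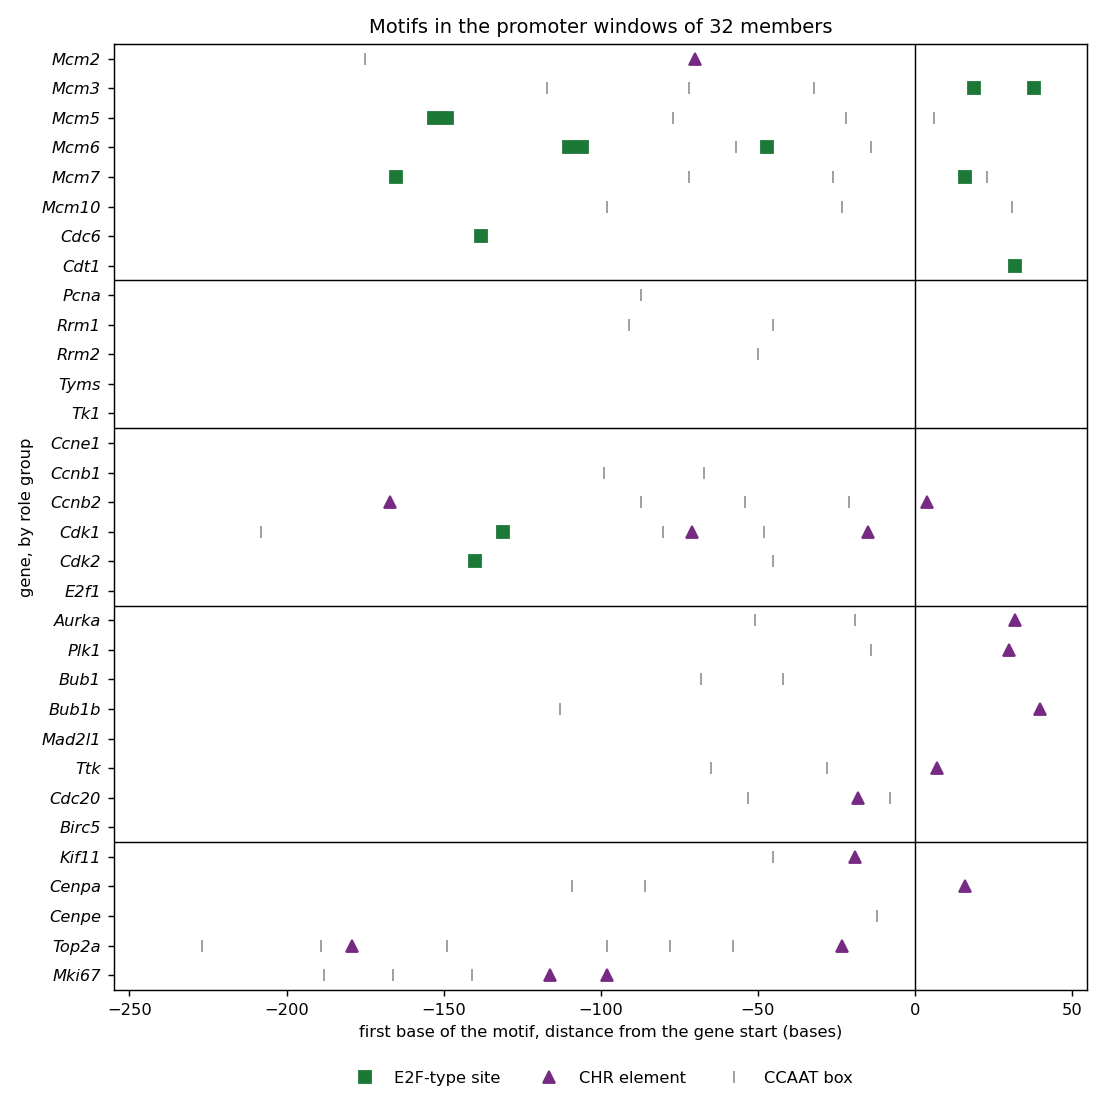
Distance in bases from the gene start of the first base of each E2F-type site (green squares), CHR element (purple triangles) and CCAAT box (grey ticks) in the promoter windows of the 32 members that have one, grouped by role. Green squares stand in 6 of the 8 licensing rows and purple triangles in 9 of the 13 rows of the 2 mitotic groups.

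Genes outside the member list were read from further lists. Of 36 other replication genes, 10 were lower and 0 higher in CD144+ cells at day 6.5 than in VEGF-R2+ cells, and 8 were lower and 0 higher than in CD144+ cells at day 3.5, with medians of -0.34 and -0.33. In these comparisons 6.11% and 2.64% of all probe sets were lower (18.1% and 7.69% of the bright ones). The count of 10 of 36 is near the share of the bright probe sets and is no result about this list. The counts of 10 and 8 were 6 and 4 with the positive arrays fitted alone, 3 and 1 with a prior without trend, and the first was 21 with centring. The first was 6 without VEGF-R2+ replicate 1 or CD144+ day 6.5 replicate 2 and 5 without VEGF-R2+ replicate 2, and the second was 5 without CD144+ day 3.5 replicate 1 or day 6.5 replicate 2 and 4 without CD144+ day 3.5 replicate 2. Fen1, the flap endonuclease of lagging strand synthesis, had 910.4 and 1396 in CD144+ cells at day 6.5, against 2569 and 3001 in VEGF-R2+ cells (log2 fold change -1.30, SE 0.19, adjusted p = 0.000147); Orc2, an origin recognition subunit, changed by -0.95 and Dut, which removes dUTP, by -0.82. Of 49 other mitosis genes, 6 and 3 were lower and 0 higher in the same comparisons, with medians of -0.08 and -0.13, led by Trip13, a checkpoint ATPase (log2 fold change -1.45, SE 0.16, adjusted p = 9.19e-06). These shares lie near or below those of the bright probe sets given above and are no result about the list; the first count was 14 with centring, 7 lower and 3 higher with dim probe sets left out and 2 with a prior without trend, and the second was 1 with the positive arrays alone or without CD144+ day 6.5 replicate 2 and 0 with a prior without trend. Against CD144- cells at day 6.5 17 of 36 replication and 21 of 49 mitosis genes were lower, and 3 and 4 higher. Of all probe sets, 10.1% were lower and 9.42% higher (24.5% and 20.9% of the bright ones). With only the compared groups in the fit, 7 and 13 were lower and 1 and 2 higher. With a prior without trend, 9 and 11 were lower and 1 and 2 higher. This comparison is also one of the positive with the negative arrays, and the 2 cannot be told apart.

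Most of the 20 listed inhibitors and withdrawal genes were higher in CD144+ cells at day 6.5 than in VEGF-R2+ cells. The list was chosen with earlier results of these data known. Of 20 genes listed as inhibitors or markers of withdrawal from the cycle, 15 were higher and 1 lower in CD144+ cells at day 6.5 than in VEGF-R2+ cells (median log2 fold change 1.32), 9 were higher and 0 lower than in CD144+ cells at day 3.5 (median 0.63), and in CD144- cells at day 6.5 against VEGF-R2- cells 6 were higher and 2 lower (median 0.40). Of all probe sets, 9.4%, 3.2% and 5.05% were higher in these comparisons (15.1%, 5.37% and 12.2% of the bright ones). The shares that were lower were 6.11%, 2.64% and 3.72% (18.1%, 7.69% and 10.4% of the bright ones). With the positive arrays fitted alone the first 2 counts of inhibitors were 14 and 5 higher, and the second was 5 with centring and 4 with a prior without trend. Cdkn1a (p21), an inhibitor of cyclin-dependent kinases, had 4735 and 6125 in CD144+ cells at day 6.5, against 1058 and 1788 in VEGF-R2+ cells (log2 fold change 1.96, SE 0.22, adjusted p = 1.24e-05), and every other array read 1503 to 2495. Cdkn1c (p57) had 2481 and 2625, against 1037 and 906 in CD144+ cells at day 3.5 (log2 fold change 1.39, SE 0.16, adjusted p = 9.54e-05), also above every other array. Gadd45b (2.97 against VEGF-R2+ cells), Mxd4, an antagonist of Myc (2.18), and Ccng2, a cyclin of resting cells (1.96), rose too, and Gadd45g was the 1 that fell (-0.94). Cdkn1b (p27) rose in both, with 2397 and 1895 in CD144+ cells at day 6.5, against 777 and 516 in VEGF-R2+ cells, and 3310.4 and 3644 in CD144- cells at day 6.5, against 1282 and 1305 in VEGF-R2- cells.

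Of 8 genes of G1 cyclins, their kinases and Myc, 2 were higher and 5 lower in CD144+ cells at day 6.5 than in VEGF-R2+ cells; the split was 2 and 2 without CD144+ day 6.5 replicate 2 or with a prior without trend, and 1 and 3 with the most variable probe set. In that comparison 9.4% of all probe sets were higher and 6.11% lower (15.1% and 18.1% of the bright ones). Myc had 418 and 218 in CD144+ cells at day 6.5 and 488 and 389 at day 3.5, 2445 and 1674 in CD41+ cells and 1834 and 1605 in VEGF-R2+ cells, so both CD144+ populations lay below the other positive ones (day 6.5 against VEGF-R2+ cells: log2 fold change -2.48, SE 0.25, adjusted p = 5.02e-06). Ccnd1, the D-type cyclin of growth factor response, had 2386 and 2772 in CD144+ cells at day 6.5 and 1079 and 2038 in CD41+ cells, against 8159 and 10037 in VEGF-R2+ cells, with log2 fold changes of -1.81 (adjusted p = 1.7e-05) and -2.60 (adjusted p = 4.33e-07). Ccnd2 had 5925 and 6959 in CD144+ cells at day 6.5, against 1182 and 1381 at day 3.5 (log2 fold change 2.32, SE 0.15, adjusted p = 1.08e-07). Among 18 regulators of E2F and DREAM, 3 were higher and 5 lower in CD144+ cells at day 6.5 than in VEGF-R2+ cells, against 1 and 4 without VEGF-R2+ replicate 2, 2 and 3 without CD144+ day 6.5 replicate 2 or with a prior without trend, and 0 and 4 with the most variable probe set. Of these, Rb1, the retinoblastoma gene, rose by 2.15 and E2f4 fell by 1.39 on the log2 scale, and E2f4 also fell in CD144- cells by 1.65. The 3 higher and 5 lower of the 18 regulators are near the shares of the bright probe sets. They are no result about the list.

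**Figure D5:**
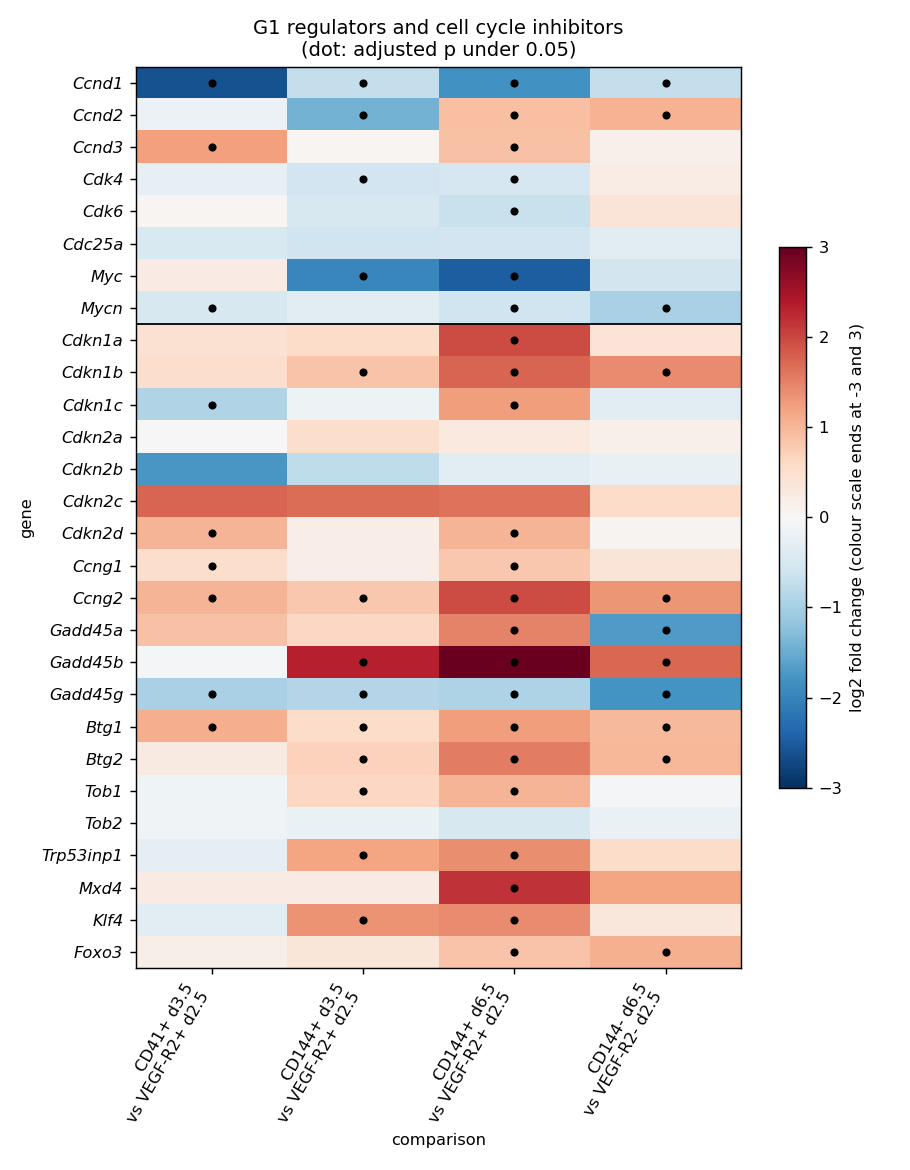
Log2 fold change of 8 G1 regulators (top) and 20 cell cycle inhibitors and withdrawal genes (bottom) in the 3 later positive populations against VEGF-R2+ cells at day 2.5, and in CD144- cells at day 6.5 against VEGF-R2- cells, with a dot where the adjusted p was under 0.05. Of the 20 lower rows, 15 are higher with a dot in CD144+ d6.5 and 6 in CD144- d6.5.

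Whether a change over time differed between positive and negative cells was tested as a difference of the 2 changes. For CD41+ cells 3 members differed upward, Ccne1 (1.29), Mki67 (1.0) and Tk1 (0.88), and 0 downward, where 2.33% and 2.4% of all probe sets did (4.96% and 6.38% of the bright ones). For CD144+ cells at day 3.5, 2 differed upward, Ccne1 (1.98) and Bub1b (0.72), and 2 downward, Ccne2 (-0.94) and Rrm1 (-0.75), where 3.1% and 2.2% did (6.14% and 5.65% of the bright ones). The upward values of Ccne1 came with its fall in negative cells, described above. Its second probe set gave -0.14 for CD41+ cells and 1.61 for CD144+ cells at day 3.5. For CD144+ cells at day 6.5, 0 differed upward and 4 downward, Rrm1 (-0.98), Cdc6 (-0.91), Rrm2 (-0.83) and Mcm7 (-0.69), where 2.8% and 2.05% did (5.04% and 5.89% of the bright ones). A second bright probe set of Rrm1 gave 0.01 for the difference at day 6.5 and -0.93 for that at day 3.5. Between CD144+ cells of the 2 days, 0 differed upward and 1 downward, Mcm7 (log2 fold change -0.84, SE 0.18, adjusted p = 0.0423), where 0.364% and 0.426% did (1.02% and 1.3% of the bright ones); the other 8 licensing genes that fell in CD144+ cells had differences of -0.90 to -0.44 that did not pass. With 0 to 4 of 37 members in each direction, these counts are near the shares of the bright probe sets and are no result about the members as a group. With a variance prior without trend the 4 counts were 0, 1, 0 and 0, and leaving out 1 array gave 1 to 4, 1 to 3, 1 to 5 and 0 to 3.

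The populations also differed in cell type markers, and their part in these changes was not tested; no marker of the lists read 0 on any array. The 9 markers of undifferentiated embryonic stem cells, which divide fast, had a summed signal of 23518 and 26566 in the 2 CD144+ arrays at day 6.5, 47993 and 54599.6 in CD144+ and 3489 and 9476 in CD41+ arrays at day 3.5, and 26457 and 29086 in VEGF-R2+ arrays; 6 of 9 were lower in CD144+ cells at day 6.5 than at day 3.5, but 5 were higher and 1 lower than in VEGF-R2+ cells. The 7 measured markers of primitive erythroid cells summed to 95305 and 114333 in CD41+ arrays, 38554 and 47979 in CD144+ and 42257 and 46851 in CD144- arrays at day 6.5, against 806 and 1087 in VEGF-R2+ arrays, and all 7 were higher in CD41+ than in VEGF-R2+ cells. The 8 fibroblast markers summed to 6574 and 7916 in CD144+ arrays at day 6.5, against 1192 and 1313 at day 3.5, with 6 of 8 higher and 1 lower. The 6 cardiac muscle markers summed to 7772 and 9019.6 in CD144+ arrays at day 6.5, against 2870.4 and 2888 at day 3.5, with 4 higher. In VEGF-R2+ arrays at day 2.5 they summed to more, 12055 and 12097. The 8 endothelial markers were all higher in CD144+ than in CD144- cells on both days, summing to 19772 and 21850.0 in CD144+ and 736 and 817 in CD144- arrays at day 6.5. The other positive populations held them too: they summed to 11404 and 12837 in CD144+ and 7392 and 12605 in CD41+ arrays at day 3.5. In VEGF-R2+ arrays they summed to 9216 and 11122. The 6 neural markers summed to 2285 and 2368 in CD144+ arrays at day 6.5, against 1236 and 1257 at day 3.5.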

How the data were processed

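Mouse embryonic stem cells were sorted into 8 populations and hybridised to 1-colour Affymetrix arrays in duplicate, with groups taken from the sample labels. The deposited intensity values are MAS5 signals that the authors computed and scaled to a trimmed mean near 500 on each array; the software version is not given in the sources used here. The study's own lists came from dChip, which was not used. The table holds 45101 probe sets, and the 64 controls among them stayed out. An offset of 6.02 (percentile 10 of the values) went into log2(signal + offset), and all 16 arrays were fitted in limma 3.58.1 under R 4.3.3 (moderated statistics with a trend, 8 residual degrees of freedom, Benjamini-Hochberg over all probe sets, two-sided). Duplicates came from separate experiments. Gene names came from the platform annotation: 34945 probe sets carry 1 symbol, 932 several and 9160 none. Each gene was represented by its single-gene probe set with the highest mean log2(signal + 6). No column of values was left unused (0). The labels do not say whether arrays of the same replicate number came from the same experiment, and the main fit did not pair them. The differences between duplicates correlated between -0.05 and 0.05 across populations, which cannot settle this.

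The members and lists were chosen with earlier results of these data known. Values per array are given for up to 4 called members with the largest change per role group, members called against the majority, Mki67 and members never called; other lists give up to 3 called genes in a comparison. The alternatives were quantile normalization, centring on each array's median, offsets of 16 and 64, leaving out dim probe sets, fits of the compared groups or of the positive or negative arrays alone, a block for the replicate number, a robust variance prior, the most variable probe set or the mean of all per gene, and leaving out each array. The fit was tested on simulated data in which each probe set had the same spread on all arrays. That test could not show the effect of the wider spread of positive duplicates. Promoter windows are RefSeq sequences of GRCm38.p6. Python 3.11.15 with matplotlib 3.10.9 drew the figures. Arrays of embryo cells were not analysed here.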

Additional observations from a re-analysis of the deposited data

Results flagged for a closer look

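With 2 arrays per population no array could be examined as an outlier against its duplicate. The 3'/5' ratio of the Actb controls, a measure of RNA quality, was highest on CD144- replicate 2 of day 6.5 (3.28, against 1.94 on its duplicate). It was next highest on CD144+ replicate 2 of day 3.5 (2.83, against 2.01 on its duplicate), and the other arrays read 1.36 to 2.22. Results without each array are given above, and the part of RNA quality in them was not tested. The results that differed between sorts, by the test of the difference of 2 changes in limma, were the following 12. In CD41+ cells against VEGF-R2+ cells, set against CD41- against VEGF-R2- cells, Ccne1 differed by 1.29 (adjusted p = 0.0287), Mki67 by 1.0 (adjusted p = 0.00157) and Tk1 by 0.88 (adjusted p = 0.0185) on the log2 scale. A second bright probe set of Ccne1 gave -0.14 for this CD41 difference. In CD144+ cells at day 3.5, set against CD144- cells, Ccne1 differed by 1.98 (adjusted p = 0.00106), Bub1b by 0.72 (adjusted p = 0.0316), Rrm1 by -0.75 (adjusted p = 0.0168) and Ccne2 by -0.94 (adjusted p = 0.0358). In CD144+ cells at day 6.5, Mcm7 differed by -0.69 (adjusted p = 0.0385), Cdc6 by -0.91 (adjusted p = 0.0203), Rrm1 by -0.98 (adjusted p = 0.00311) and Rrm2 by -0.83 (adjusted p = 0.00922). A second bright probe set of Rrm1 gave 0.01 for this day 6.5 difference. Between CD144+ cells at days 6.5 and 3.5, Mcm7 differed by -0.84 (adjusted p = 0.0423).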

How the results depend on the processing

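The counts are members that passed, out of 37. The 144 gene values called in the comparisons gave 2125 values under the alternatives, of which 1544 kept direction and side of the threshold, 549 kept the direction only and 32 changed sign. Offsets of 16 and 64 and leaving out dim probe sets kept all 144 gene calls. The cause of the changes was not tested, and signal over background limits dim members such as Tyms.

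With quantile normalization 2 members passed in CD41- against VEGF-R2- cells and 0 in the difference between sorts of the CD144+ change across days 3.5 and 6.5 (below, the late difference). With centring, CD41+ against VEGF-R2+ cells had 3, CD144- day 3.5 against VEGF-R2- cells 1 and the late difference 0. With an offset of 64 the late difference had 2. With dim probe sets left out, CD41- against VEGF-R2- cells had 2, CD144- day 6.5 against VEGF-R2- cells 8, the difference between sorts at day 6.5 had 9 and the late difference 2. With only the compared groups in the fit, CD144+ against CD144- cells at day 6.5 had 10; CD41+, CD144+ day 3.5 and CD144+ day 6.5 against VEGF-R2+ cells had 3, 1 and 10; CD144+ day 6.5 against day 3.5 had 3 and CD144+ against CD41+ cells 2; CD41-, CD144- day 3.5 and CD144- day 6.5 against VEGF-R2- cells had 9, 12 and 2; the difference at day 6.5 had 2 and the late difference 0. With positive or negative arrays alone, the same comparisons of positive cells had 3, 1, 10, 3 and 4, and those of negative cells 4, 5 and 8. With no trend and a robust prior in limma, positive against negative cells had 9 at day 2.5, 7 (CD41) and 5 (CD144) at day 3.5 and 12 at day 6.5; the comparisons of positive cells had 1, 1, 9, 0 and 3; CD144- day 3.5 and day 6.5 against VEGF-R2- cells had 1 and 1; the differences had 0, 1, 0 and 0. Taking each gene's most variable probe set, CD41+ against VEGF-R2+ cells had 3, CD144+ day 6.5 against day 3.5 had 6, CD41- against VEGF-R2- cells 2 and the late difference 0; with the mean of all probe sets the last 3 were 6, 2 and 0.

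Leaving out 1 array gave 10 to 13 members in VEGF-R2+ against VEGF-R2-, 9 to 12 in CD41+ against CD41-, 8 to 12 and 15 to 23 in CD144+ against CD144- cells at days 3.5 and 6.5; 2 to 4, 2 to 9 and 12 to 14 in CD41+, CD144+ day 3.5 and CD144+ day 6.5 against VEGF-R2+ cells; 4 to 6 in CD144+ day 6.5 against day 3.5; 3 to 10 in CD144+ against CD41+ cells; 1 to 1, 1 to 1 and 2 to 4 in the negative cells against VEGF-R2- cells and 0 to 0 between CD144- cells; and 1 to 4, 1 to 3, 1 to 5 and 0 to 3 in the 4 differences. The lone array of a population was then taken to vary like the other populations.

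The replicate block kept all 144 gene calls and moved 2 counts by over 1.5 times, to 2 in CD41- against VEGF-R2- cells and to 2 in the late difference, and the others by at most 2 members. The differences between duplicates correlated between -0.05 and 0.05 across populations. Whether arrays of the same number share an experiment is not stated, and they were not paired in the main fit.

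The sign turned in the following values. For Cdt1, Cdk2, Bub1b, Gins1, Rrm1, E2f1, Mcm6 and Aurka the most variable probe set was dim, at percentile 0.67 to 41.0 of mean signal. For Ccne1, Cdc20 and Mcm3 it was bright, at percentile 87.4 to 88.9. The mean of all probe sets takes in the dim ones. Pcna gave -0.066 in CD41+ against CD41- cells with quantile normalization. Taking each gene's most variable probe set, VEGF-R2+ against VEGF-R2- cells gave 0.23 for Cdt1 and 1.84 for Cdk2; CD41+ against CD41- cells 1.13 for Bub1b; CD144+ against CD144- cells at day 3.5 -0.086 for Gins1 and 0.98 for Cdk2, and at day 6.5 2.01 for Cdt1, 0.015 for Cdk2, 0.13 for Bub1b and 0.28 for Cdc20; against VEGF-R2+ cells, CD41+ cells 1.51 for Rrm1 and -0.37 for E2f1, CD144+ day 3.5 cells -0.44 for Mcm6 and CD144+ day 6.5 cells 0.79 for Rrm1 and 1.56 for Aurka; CD144+ day 6.5 against day 3.5 cells 0.38 for Mcm3, 1.56 for Cdt1 and 0.80 for Rrm1; CD144+ against CD41+ cells 1.22 for Cdk2; and the differences -0.14 for Ccne1 (CD41), 1.16 for Rrm1 (CD144, day 3.5) and 1.02 for Rrm1 (day 6.5). With the mean of all probe sets, VEGF-R2+ against VEGF-R2- cells gave 0.71 for Cdk2 and 0.035 for Bub1; CD144+ against CD144- cells 0.11 for Cdk2 at day 3.5 and 0.38 for Cdt1 at day 6.5; CD41+ against VEGF-R2+ cells 0.29 for Rrm1; CD144+ day 6.5 against VEGF-R2+ cells 0.48 for Aurka; CD144+ day 6.5 against day 3.5 cells 0.18 for Cdt1 and 0.13 for Rrm1; CD144+ against CD41+ cells 0.24 for Cdk2; and the difference at day 6.5 0.017 for Rrm1.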
